A study of Mus musculus with 21 samples.

Results

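Fibroblast wells of embryonic mouse back skin that were rich in mitotic RNA were compared with fibroblast wells of the same plates that were poor in it. Of the 1967 wells in the table, 1371 carried the fibroblast prefix Fb, each for a sorted cell. The 1155 of these with at least 3000 unique molecular identifiers (UMIs, the random tags that mark single RNA molecules) were kept. They were selected on a score, the sum of UMIs of Mki67, Top2a, Cdk1, Ccnb1, Cenpf and Ube2c per 10000 UMIs of all genes in the well. Within each of 7 libraries the top 20% of wells were called dividing and the bottom 50% cycle-low. This gave 231 dividing and 579 cycle-low wells, with 345 wells between them, and the UMIs of each group were summed per library. The names stand for ranges of the score and not for cell types: a cycle-low well may hold a resting cell or a cell in G1 or early S phase.

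All wells came from dorsal skin of CD1 mouse embryos at embryonic stage E15.0, with no treatment or mutation named in the labels, so both groups share strain, age and tissue. Single live cells were sorted into plates, and each plate gave a library by SORT-seq, which counts the 3′ ends of polyadenylated RNA. The 12 bulk samples and the other 2 single-cell libraries were not analysed here. The labels do not say whether the libraries came from separate litters or how the Fb prefix was given to a well, so the p-values measure the spread between these 7 libraries, which may be technical.

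Cells copy their DNA in S phase, with helicase and nucleotide synthesis genes expressed at its start, and build the spindle and mitotic kinases in G2 and mitosis. Dermal fibroblasts also secrete the collagens, proteoglycans and elastic fibres of the dermis, and they signal to the epidermis and to each other. In the embryo they form an upper layer close to the epidermis, marked by WNT responses and Crabp1, and a lower layer and fascia, marked by genes such as Dlk1 and Mfap5.

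The 6 score genes chose the groups, so their values are a description only. The median score per library was 33.1 to 48.6 in dividing wells and 1.12 to 2.01 in cycle-low wells. The lowest dividing well scored 33.2, 28.3, 23.2, 23.2, 25.1, 27.6 and 33.1 in libraries 1 to 7, and the highest well just outside that group scored 32.8, 27.5, 22.8, 22.9, 24.03, 27.1 and 33.0. The highest cycle-low well scored 7.24 in library 1 and 3.92 to 4.21 in the others, and the lowest well between the groups scored 7.73 in library 1 and 3.93 to 4.29 in the others. No gap in the score separated the groups, and 0.870% to 12.7% of the wells of a library scored 0. Mki67, the proliferation antigen, was at 1028 ± 147 CPM (counts per 1e6 UMIs of the sum, mean ± SD over 7 libraries, here and below) in dividing wells and at 31.7 ± 6.47 CPM in cycle-low wells. Ccnb1, the cyclin of mitotic entry, was at 414 ± 44.5 and 9.81 ± 2.55 CPM.

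Dividing wells held more UMIs. The score has the UMIs of the well as its denominator, so the groups were not chosen apart from depth. A well with few UMIs can miss the score genes through depth alone, which places it in the cycle-low group. The part of this in the differences below was not tested. The median number of UMIs per well was lowest at 17134, 32204 in the middle library and highest at 46215 in dividing wells, against 9650, 27863 and 32268 in cycle-low wells. It was 1.41 times higher in dividing wells (1.12 to 1.78 times across libraries) and higher in 7 of 7 libraries (exact two-sided permutation test over libraries, p = 0.0156, the smallest it can give). Spike-in RNA, the synthetic standard added to wells, was at a median of 427 ± 137 UMIs in dividing and 430 ± 135 UMIs in cycle-low wells (exact permutation p = 0.688). Gene UMIs per spike-in UMI were therefore 82.8 ± 32.1 against 58.4 ± 21.6, again 1.41 times higher and higher in 7 of 7 libraries (exact permutation p = 0.0156). Wells between the groups had 61.9 ± 19.99 gene UMIs per spike-in UMI, 1.07 times the cycle-low value (exact permutation p = 0.203). Dividing wells also had 1.20 times as many genes detected, and 1.04 times as many when each well was thinned to 3000 UMIs (exact permutation p = 0.0156 for both).

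**Figure D1:**
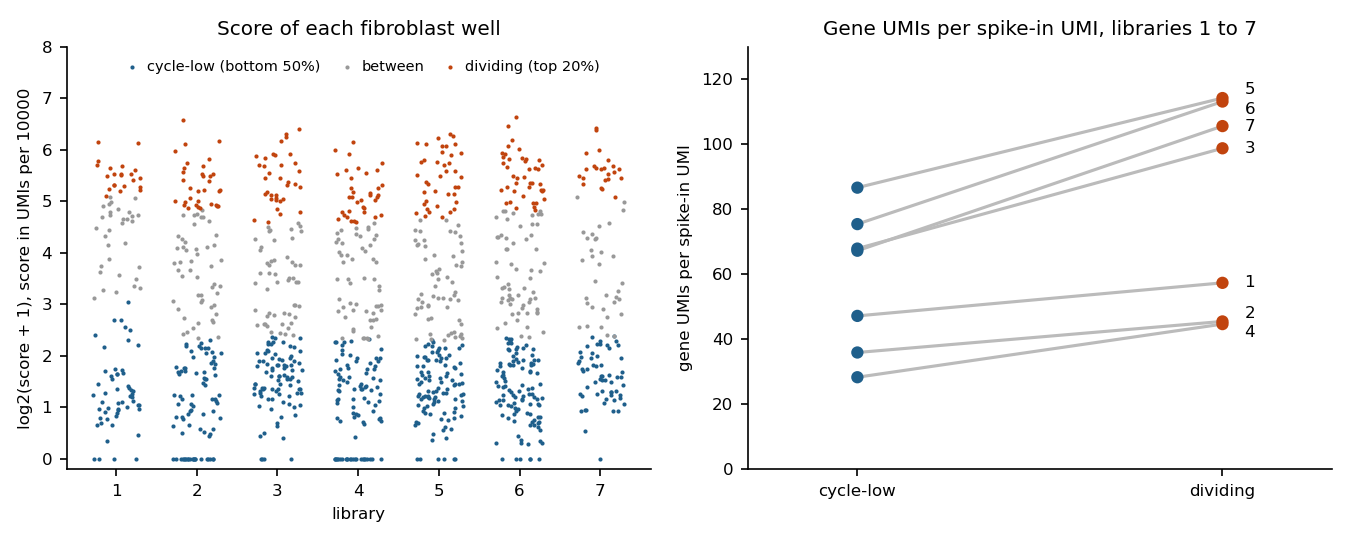
Left, the score of each fibroblast well (log2 of score + 1, score in UMIs per 10000) in libraries 1 to 7, coloured by group; points are wells spread sideways at random. Right, gene UMIs per spike-in UMI summed over the cycle-low and the dividing wells of each library, with a line per library; all 7 lines rise, from 28.3 to 86.7 in cycle-low and from 44.7 to 114 in dividing wells.

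For this reason differences are given on 2 scales, or in share alone where no value per spike-in is named. The first is the share of UMIs (log2 difference, dividing minus cycle-low, tested with edgeR's quasi-likelihood test, SE the standard error of the difference), which asks whether a gene took more or less of the RNA in the well. The second scales the sums by their spike-in UMIs, which asks whether the well held more or fewer molecules. The labels do not state that every well received the same amount of spike-in. On the first scale 1595 of 9538 genes were higher (16.7%) and 1550 lower (16.3%), score genes left out, and the median difference was −0.01. On the second scale 5789 were higher (60.7%) and 181 lower (1.9%), and the median was 0.48. A gene whose share did not move therefore stood about 0.48 higher per spike-in.

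The libraries held 607750 to 1627205 UMIs in the summed dividing wells and 1057729 to 2933835 in the cycle-low wells. The 8 fibroblast markers summed to 45369 CPM (39918 to 51497) in dividing and 55152 CPM (49943 to 62145) in cycle-low wells, the highest level of the 11 marker lists in both groups, and 2 of the 8 were higher and 4 lower in share. Keratinocyte markers summed to 113 CPM (24.1 to 315) and 164 CPM (41.6 to 532), pericyte and smooth muscle markers to 171 CPM (132 to 232) and 249 CPM (199.5 to 316), and immune markers to 5.67 to 17.9 and 7.11 to 23.5 CPM over the libraries. Of these, 2 of 4 tested keratinocyte and 3 of 6 tested pericyte markers were lower in dividing wells and none was higher. Muscle markers summed to 34.99 against 56.1 CPM, lower in 7 of 7 libraries, and the 1 tested was lower. The part of these cells in the results was not tested. Of the 11 marker lists only the Schwann list had a member at 0, Cdh19. The labels of library 7 name one plate in its title and another in its description, and its wells were matched by the title.

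The other genes of the cell cycle follow the same cycle as the score genes. Their counts past edgeR's threshold are given as a description only, since the wells were chosen on mitotic genes of that cycle. Nothing is read from these counts. Of 168 genes of G2 and mitosis, 165 were higher in dividing wells and 0 lower, with a median log2 difference of 3.49. Plk1, a kinase of mitotic entry, was at 205, 286 and 323 CPM (lowest, median and highest library) in dividing wells and at 3.83, 7.44 and 9.54 CPM in cycle-low wells. Aurkb, a kinase of chromosome segregation, was at 166, 199 and 235 CPM against 3.31, 4.09 and 6.93 CPM. The groups did not overlap for either gene, and the wells between lay between them, at 63.7 ± 27.7 CPM for Plk1 and 62.7 ± 33.4 CPM for Aurkb.

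Of 101 S phase genes, 71 were higher and 14 lower, with a median of 0.69. The 4 described next were highest in the wells between the groups. Pcna, the sliding clamp of DNA replication, was at 415 ± 52.6 CPM in cycle-low, 849.7 ± 125 CPM in between and 520.2 ± 122 CPM in dividing wells. Mcm6, a subunit of the replicative helicase, was at 231 ± 22.4, 295 ± 26.4 and 146 ± 32.7 CPM in the same order. Cdc6, which loads that helicase, was at 23.96 ± 4.603, 42.4 ± 12.6 and 14.2 ± 5.30 CPM. These replication genes were thus highest in the middle range of the score, and Mcm6 and Cdc6 were lower in dividing than in cycle-low wells. Rrm2, which makes deoxynucleotides, was at 57.3 ± 10.1, 317 ± 81.1 and 239.8 ± 55.7 CPM. Ccne2, the cyclin of S phase entry, had too few UMIs to be tested, at 2.05 to 5.72 CPM in dividing and 3.22 to 8.20 CPM in cycle-low wells.

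**Figure D2:**
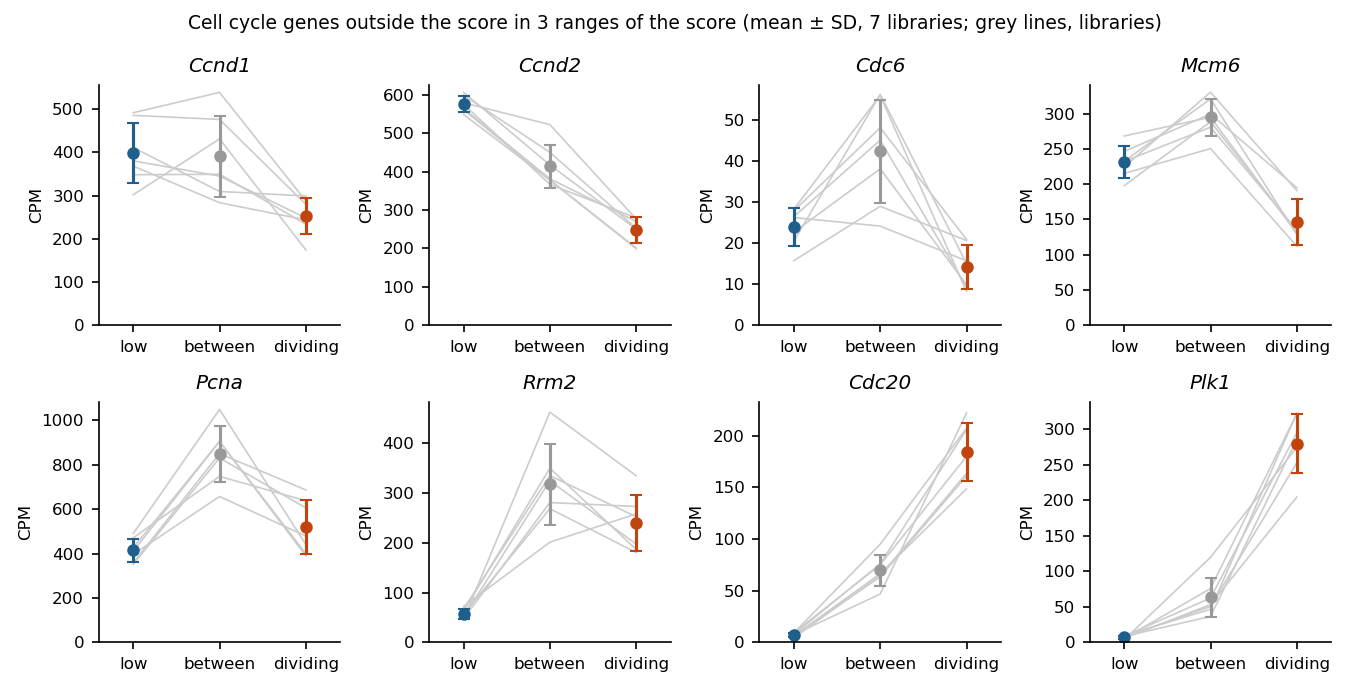
CPM of 8 cell cycle genes outside the score in cycle-low, between and dividing wells; points and bars are the mean ± SD of 7 libraries and grey lines are libraries. Cdc20 and Plk1 climb from left to right, Pcna, Mcm6, Cdc6 and Rrm2 peak in the middle range, and Ccnd2 descends.

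Outside the cycle lists 1359 of 9269 genes were higher (14.7%) and 1536 lower (16.6%). The genes with the largest rises follow, given as a description, since several of them are tied to the same mitotic genes that chose the wells. Spdl1, which recruits dynein to kinetochores, was at 73.7, 92.1 and 116 CPM in dividing and 2.14, 2.97 and 8.51 CPM in cycle-low wells, a log2 difference of 4.71. Prr11, a proline-rich protein of proliferating cells, was at 112 ± 24.9 against 6.24 ± 1.46 CPM and rose by 4.19. Trim59, a ubiquitin ligase, was at 168 ± 33.3 against 15.05 ± 5.77 CPM and rose by 3.56. None of these 3 genes overlapped between the groups, and each was higher in 7 of 7 libraries. C330027C09Rik, 2700099C18Rik and Nsl1, a kinetochore subunit, rose by 3.53, 3.07 and 2.94, and E2f7, a repressor of replication genes, by 2.22 (20.1 ± 4.78 to 91.1 ± 12.7 CPM). Fzr1, an activator of the anaphase-promoting complex that degrades mitotic cyclins, rose by 2.09, from 42.5 ± 13.6 to 180.0 ± 13.01 CPM.

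The promoters of Spdl1, Prr11 and Trim59, and of Cdc20, an activator of the anaphase-promoting complex, are shown because each holds both letter runs known from promoters of mitotic genes. These are TTTGAA, the letters of the cell cycle genes homology region, and CCAAT, the letters bound by NF-Y. The window runs from 100 bases before to 10 bases after the RefSeq start (GRCm38.p6), 5′ to 3′ on the strand of the gene. Capitals mark either run on either strand, so TTCAAA and ATTGG are the same runs read from the other strand, and no match overlaps another. All 4 genes lie on the minus strand: Spdl1 at chr11:34833632-34833741, Prr11 at chr11:87108705-87108814, Trim59 at chr3:69044733-69044842 and Cdc20 at chr4:118437334-118437443.
Spdl1: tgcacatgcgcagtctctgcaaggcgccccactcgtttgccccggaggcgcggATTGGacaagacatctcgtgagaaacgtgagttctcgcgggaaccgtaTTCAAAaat
Prr11: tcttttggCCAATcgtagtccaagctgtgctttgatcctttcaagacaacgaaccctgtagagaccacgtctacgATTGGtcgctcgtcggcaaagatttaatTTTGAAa
Trim59: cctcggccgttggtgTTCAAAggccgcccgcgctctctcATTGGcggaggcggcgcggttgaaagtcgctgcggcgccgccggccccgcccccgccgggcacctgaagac
Cdc20: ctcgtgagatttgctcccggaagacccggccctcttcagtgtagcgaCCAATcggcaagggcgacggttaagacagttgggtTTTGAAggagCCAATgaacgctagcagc

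RefSeq promoters were listed for 7223 symbols of the 9544 genes tested (score genes included), 9270 promoters in all. TTTGAA stood in 3.45% of these, in 23.1% of the 208 promoters of score and cycle list genes that were higher, in 5.16% of the 1298 promoters of other genes that were higher, and in 2.76% of the 1522 promoters of genes that were lower. CCAAT stood in 23.0%, 53.4%, 29.97% and 21.35% of the same groups, and both runs in 1.08%, 16.8%, 2.00% and 0.526%. These shares describe letters in a window and were not tested. E2f7 and Fzr1 held CCAAT without TTTGAA, and Cdkn2c and Cdkn2d held neither run.

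Cell cycle inhibitors went both ways. Of 28 genes of brakes and cell cycle exit tested, 6 were higher and 11 lower (median −0.19), against 16.7% and 16.3% of all genes. Cdkn2c, which blocks the kinases Cdk4 and Cdk6, was at 57.8, 92.9 and 218 CPM in dividing and 6.35, 10.4 and 26.5 CPM in cycle-low wells, a rise of 3.03. Cdkn2d, of the same INK4 family, was at 74.8 ± 13.1 against 11.2 ± 3.11 CPM and rose by 2.72. Both belong to the largest rises described above, so their values too are a description only. For neither gene did the groups overlap. Ccng2, a cyclin linked to cell cycle arrest, rose by 2.00 (20.4 ± 8.58 to 79.0 ± 18.7 CPM), and Cdkn1b, which encodes the inhibitor p27, by 0.94 (26.5 ± 4.30 to 51.0 ± 10.6 CPM), each higher in 7 of 7 libraries.

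Other inhibitors and early response genes had lower shares in dividing wells. They act in the same cycle as the score genes, so their p-values are not independent of how the wells were chosen. Cdkn1c, which encodes the inhibitor p57, was at 948, 1553 and 2814 CPM in dividing and 1503, 2322 and 3506 CPM in cycle-low wells. It fell by 0.57 (SE 0.106, adjusted p = 0.000471), the groups overlapped, and the difference per spike-in was −0.08 (adjusted p = 0.605). Cdkn1a, which encodes the inhibitor p21, was at 36.1 ± 25.7 against 50.8 ± 21.0 CPM, with 66.7 ± 19.9 CPM in the wells between. Its log2 difference of −0.53 (adjusted p = 0.0114) was 0.06 with the top 30% of wells and 0.31 with S phase genes added to the score, and the call was lost without library 5 (−0.44, adjusted p = 0.0588), in libraries 3, 5, 6 and 7 (−0.47, adjusted p = 0.0948) and in libraries 1, 2 and 4 (−0.69, adjusted p = 0.123). For the setting with S phase genes added, the wells of each library were ranked by the score and by a separate S phase gene score. The higher rank of a well set its group, so dividing wells there stood high in either ranking and cycle-low wells low in both. Btg1, an antiproliferative gene, fell by 0.31 in share (270.1 ± 51.8 to 219 ± 55.2 CPM) and stood at 0.17 per spike-in (adjusted p = 0.0857). Its call was lost with S phase genes added to the score (−0.16, adjusted p = 0.0631) and in libraries 1, 2 and 4 (−0.22, adjusted p = 0.245).

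Of 8 D-type cyclins and partners tested, which drive cells out of G1, 2 were higher (Cdk4 and Cdk2) and 4 lower (Ccnd2, Myc, Ccnd1 and Ccnd3), with a median of −0.13, against 16.7% and 16.3% of all genes. Since these genes act in the same cycle as the score genes, their p-values too are not independent of the choice of wells. Ccnd2 was at 199, 253 and 279 CPM in dividing wells and at 549, 576 and 607 CPM in cycle-low wells. All 7 dividing sums lay below all 7 cycle-low sums. As a mean of the library percentages, 94.5% of dividing wells lay below the cycle-low median of their library. The fall was 1.21 (SE 0.0657, adjusted p = 3.97e-11) in share and stood at −0.73 per spike-in (adjusted p = 6.92e-07), and the wells between stood at 414 ± 56.2 CPM. Ccnd1 was at 174, 248 and 299 CPM against 302, 380.4 and 492 CPM, a fall of 0.64 (SE 0.0617, adjusted p = 2.19e-07) with no overlap. The wells between stood at 391 ± 93.8 CPM, close to the cycle-low wells, and the Ccnd1 difference was −0.02 (adjusted p = 0.869) when S phase genes were added to the score. Myc, a driver of growth and G1 progression, fell by 0.84 in share (81.8 ± 39.5 to 44.6 ± 14.5 CPM) and stood at −0.35 per spike-in (adjusted p = 0.0298), and its share was at −0.31 (adjusted p = 0.0935) with S phase genes added to the score.

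As a share of RNA, genes of the extracellular matrix were lower in dividing wells. Of the 121 matrix genes tested (143 of 152 listed were in the table), 73 were lower and 0 higher at an adjusted p under 0.05, against 16.3% and 16.7% of all genes, and their median was −0.38. With cycle-low wells matched on UMI total, 82 were lower and 2 higher, against 1423 lower and 1323 higher over all genes. The match was not complete: dividing wells still had 1.05 times the median UMIs (0.994 to 1.18 times across libraries, exact permutation p = 0.0469). In the 4 libraries whose descriptions carry the same sequencing run code (3, 5, 6 and 7), 55 were lower and 1 higher. Over all genes 992 were lower and 1186 higher there. In libraries 1, 2 and 4, 50 were lower and 0 higher, against 562 lower and 731 higher over all genes. Per spike-in the same 121 genes gave 27 higher and 9 lower, against 60.7% and 1.9% of all genes, with a median of 0.11 against 0.48. The other 85 passed in neither direction per spike-in. The 9 genes lower on both scales were Tnc, Ogn, Aspn, Postn, Loxl3, Mfap4, Col27a1, Adamts15 and Adamts17. In sums over wells, fewer wells with a transcript and fewer transcripts per well cannot be told apart.

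**Figure D3:**
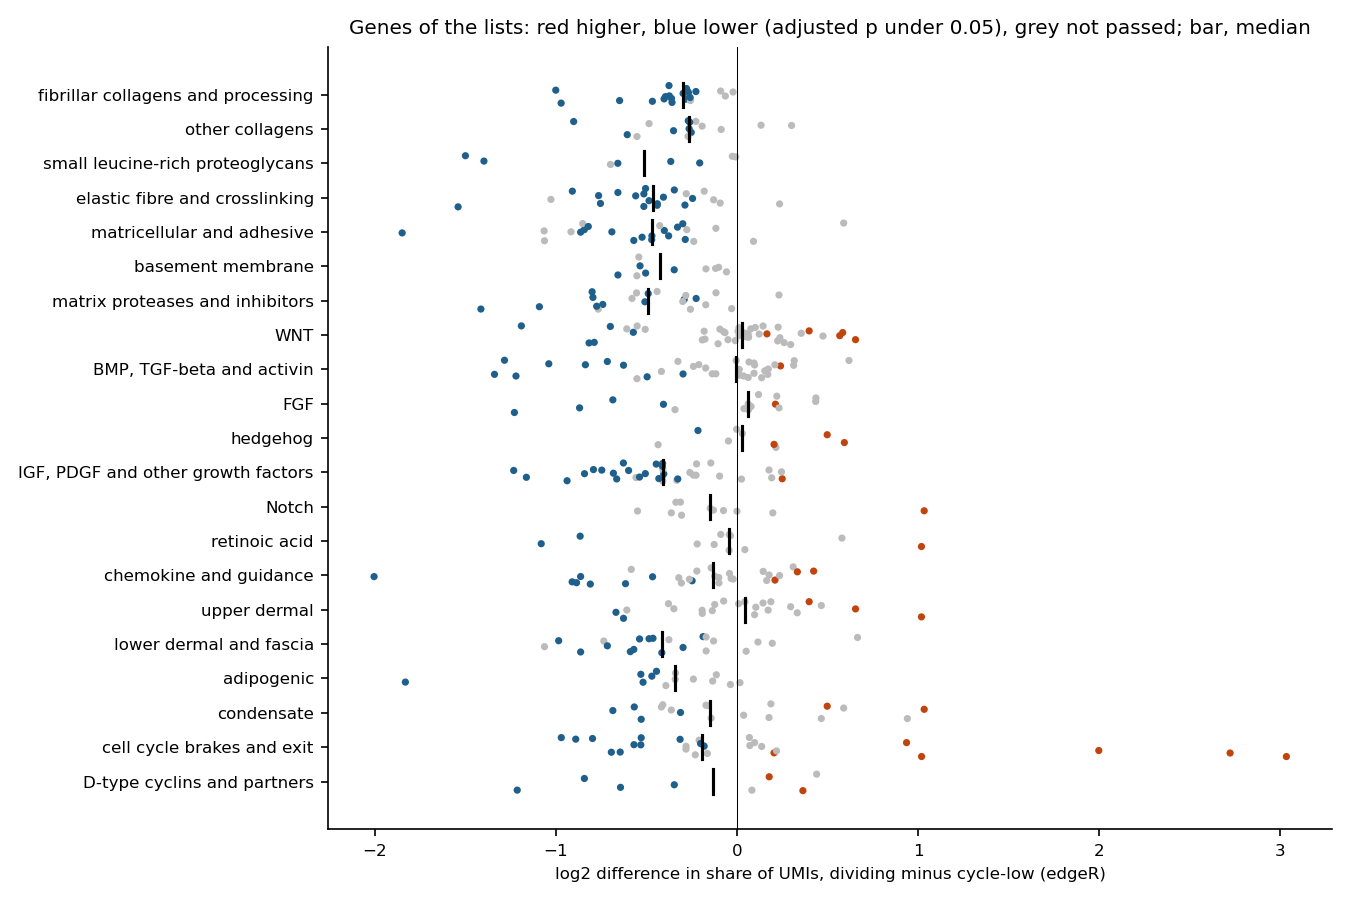
Log2 difference in share of UMIs (dividing minus cycle-low) of each tested gene in 21 lists; points are genes, red higher and blue lower at an adjusted p under 0.05, grey not passed, and bars are list medians. The 7 matrix lists at the top hold no red point, and the WNT, hedgehog and upper dermal lists hold points on both sides.

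Fibrillar collagens, the main fibres of the dermis, and the enzymes that process them showed small falls. Of 21 tested, 17 were lower and 0 higher, against 16.3% and 16.7% of all genes, with a median of −0.30. Col1a1 was at 4956, 7786 and 11458 CPM in dividing and 4787, 10984 and 12131 CPM in cycle-low wells. The groups overlapped, library 4 was lowest in both, and the gene was lower in 6 of 7 libraries. The difference was −0.28 (SE 0.0671, adjusted p = 0.00336) in share and 0.20 per spike-in (adjusted p = 0.069), and the call was lost against all wells outside the top 20% (−0.19, adjusted p = 0.0666). Col1a2 was at 11826, 15278 and 18908 CPM against 16044, 19735 and 24289 CPM and fell by 0.36 (SE 0.0508, adjusted p = 2.59e-05). Its per spike-in difference was 0.12 (adjusted p = 0.170). Col3a1 fell by 0.28 in share (17247 ± 2212 to 14160.4 ± 2128 CPM) and was higher by 0.21 per spike-in (adjusted p = 0.00579). Serpinh1, the collagen chaperone, fell by 0.37 in share, from 2482 ± 316 to 1916 ± 343 CPM, and was at 0.11 per spike-in (adjusted p = 0.173).

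Single wells were spread around these values. As a mean of the library percentages, 65.1% of dividing wells held a lower share of Col1a1 than the cycle-low median of their library. The means were 68.8% for Col1a2 and 73.6% for Col3a1. Of other collagens 7 of 15 were lower and 0 higher, against 16.3% and 16.7% of all genes. Col12a1, which binds the surface of collagen I fibrils, fell by 0.61 in share (494 ± 71.1 to 336 ± 109 CPM) and was at −0.12 per spike-in (adjusted p = 0.368). Col6a1 and Col6a2, chains of beaded microfibrils, fell by 0.25 and 0.27 in share and were higher by 0.23 and 0.22 per spike-in (adjusted p = 0.0161 and 0.0179). In libraries 3, 5, 6 and 7 the Col6a1 difference was −0.19 (adjusted p = 0.0585).

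Of 8 small leucine-rich proteoglycans tested, which coat collagen fibrils, 5 were lower and 0 higher in share. Their median was −0.51, and 16.3% and 16.7% of all genes were lower and higher. Ogn (osteoglycin, chr13:49608015-49624501) was at 37.7, 98.7 and 142 CPM in dividing wells and 188, 264 and 344 CPM in cycle-low wells, and no library of one group reached the other. It fell by 1.499 in share (SE 0.156, adjusted p = 6.67e-07) and stood at −1.01 per spike-in (adjusted p = 0.000131). Aspn (asporin), its neighbour at chr13:49544443-49567565, was at 70.9, 165 and 330.4 CPM against 295, 400.5 and 567 CPM, lower in 7 of 7 libraries with overlap. It fell by 1.397 (SE 0.250, adjusted p = 0.000311) in share and was at −0.93 per spike-in (adjusted p = 0.00311). Dcn (decorin), the most abundant of the 4 named, fell by 0.21 in share (4086 ± 434 to 3519 ± 325 CPM) and was higher by 0.28 per spike-in (adjusted p = 0.000493), and its share difference in libraries 1, 2 and 4 was −0.17 (adjusted p = 0.114). Lum (lumican) was at 1717 ± 194 and 1755 ± 169 CPM, a difference of −0.03 (adjusted p = 0.752), and 0.46 per spike-in.

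Matricellular and adhesive genes were lower in 14 of 24 tested, with 0 higher, against 16.3% and 16.7% of all genes. Their median was −0.47. Tnc (tenascin C, chr4:63959785-64047015), a matrix protein of moving and remodelling tissue, was at 8.58, 13.2 and 49.0 CPM in dividing wells and 36.1, 56.2 and 149.9 CPM in cycle-low wells. Library 4 was highest in both groups, and the level was lower in 7 of 7 libraries. The fall was 1.85 (SE 0.190, adjusted p = 5.5e-07) in share and stood at −1.36 per spike-in (adjusted p = 1.5e-05). Postn (periostin), a binder of collagen and integrins, was at 421, 775 and 1105 CPM against 966, 1272 and 1515 CPM, lower in 7 of 7 libraries with overlap. It fell by 0.86 in share (SE 0.123, adjusted p = 3.16e-05) and stood at −0.38 per spike-in (adjusted p = 0.0196). Fn1 (fibronectin) and Sparc, a collagen-binding glycoprotein, fell by 0.47 and 0.33 in share and were at 0.01 and 0.16 per spike-in (adjusted p = 0.911 and 0.0624).

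Elastic fibre genes were lower in 16 of 22, with 0 higher, against 16.3% and 16.7% of all genes. Their median was −0.46. Fbn2, the fibrillin of embryonic microfibrils, was at 581, 676 and 788 CPM in dividing and 845, 894 and 971 CPM in cycle-low wells, with no overlap, and fell by 0.41 (SE 0.0543, adjusted p = 1.49e-05). Mfap2, a microfibril glycoprotein, and Ltbp3, which holds latent TGF-beta in the matrix, also did not overlap and fell by 0.35 and 0.75. Per spike-in Fbn2, Mfap2 and Ltbp3 were at 0.08, 0.14 and −0.26, and none passed. Lox, the crosslinking enzyme of collagen and elastin, was at 129.7 ± 34.4 against 174 ± 43.6 CPM (−0.44, adjusted p = 0.0239). That call was lost without library 1 (−0.42, adjusted p = 0.0516), library 5 (−0.28, adjusted p = 0.106) or library 6 (−0.35, adjusted p = 0.0994). In libraries 1, 2 and 4 the difference was −0.16 (adjusted p = 0.614).

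Of 10 basement membrane genes 4 were lower and 0 higher, against 16.3% and 16.7% of all genes. Lamb1, a laminin chain, fell by 0.66 in share (300.1 ± 39.5 to 189.6 ± 43.6 CPM), and Nid1, a linker of laminin and collagen IV, by 0.54 (374 ± 38.2 to 259 ± 59.6 CPM). Of 21 matrix proteases and inhibitors 10 were lower and 0 higher, against the same shares of all genes. Adamts1, a versican-cleaving protease, fell by 0.80 (377 ± 54.3 to 222 ± 74.4 CPM), Mmp2, a gelatinase, by 0.51 (324 ± 46.4 to 227 ± 34.4 CPM) and Timp2, its inhibitor, by 0.49 (307 ± 26.3 to 217 ± 36.1 CPM). None of these 5 genes passed the test per spike-in, where they were between −0.31 and −0.01.

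**Figure D4:**
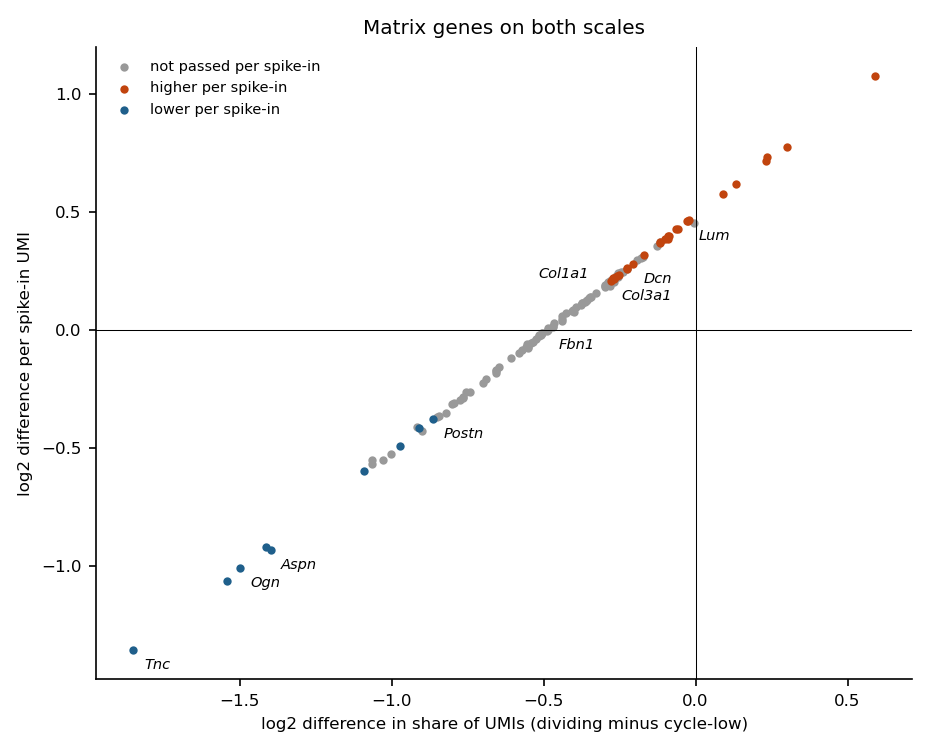
Each of the 121 tested matrix genes by its log2 difference in share of UMIs (x axis) and per spike-in UMI (y axis), dividing minus cycle-low, coloured by the test per spike-in. Nearly all points lie left of 0 on the x axis, and most of the points below 0 on the y axis are grey; Tnc, Ogn, Aspn and Postn stand low on both.

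Of 183 signalling genes tested, 16 were higher (8.74%) and 47 lower (25.7%) in share, against 16.7% and 16.3% of all genes, with a median of −0.10. The counts were 8 and 35 in libraries 3, 5, 6 and 7, against 1186 and 992 over all genes. In libraries 1, 2 and 4 they were 8 and 28, against 731 and 562 over all genes. Per spike-in 92 were higher and 8 lower, against 60.7% and 1.9% of all genes, with a median of 0.39 against 0.48. The 8 lower on both scales were Acvrl1, Bmp2, Ccl2, Crabp2, Fgf7, Igfbp3, Igfbp4 and Tgfb3. Growth factors and their binding proteins were mostly lower in share. On the list of IGF, PDGF and other growth factors, 18 of 34 were lower and 1 higher, with a median of −0.41. Of all genes 16.3% were lower and 16.7% higher.

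Igf2, a growth factor of fetal tissue, was at 2474, 3512 and 5819.5 CPM in dividing and 4066, 5450.0 and 7296 CPM in cycle-low wells. The groups overlapped through library 7, where the dividing wells were not lower, and 6 of 7 libraries were lower. It fell by 0.60 in share (SE 0.0841, adjusted p = 2.59e-05) and was at −0.11 per spike-in (adjusted p = 0.374). H19, the non-coding RNA of the same imprinted locus on chromosome 7, fell by 0.66 in share, from 5223 ± 1471 to 3323 ± 1183 CPM, and was at −0.18 per spike-in (adjusted p = 0.159). Igfbp3, which binds IGFs outside the cell, fell by 1.16 in share (59.6 ± 27.0 to 25.9 ± 15.3 CPM) and stood at −0.67 per spike-in (adjusted p = 0.00607). Igfbp5 fell by 0.51 in share and was at −0.02 per spike-in, and its share difference in libraries 1, 2 and 4 was −0.35 (adjusted p = 0.0622). Pdgfra, the receptor of PDGF and a pan-fibroblast gene, was the sole member that rose in share, from 314 ± 29.5 to 371 ± 40.4 CPM (0.25, SE 0.0659, adjusted p = 0.00699). That rise missed the threshold in libraries 3, 5, 6 and 7 (0.20, adjusted p = 0.131), in libraries 1, 2 and 4 (0.30, adjusted p = 0.0572) and with S phase genes added to the score (0.15, adjusted p = 0.0596).

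Of 15 FGF pathway genes 4 were lower (26.7%) and 1 higher (6.67%), against 16.3% and 16.7% of all genes. Fgf7, a growth factor of the dermis for keratinocytes, was at 7.15, 9.87 and 15.4 CPM in dividing wells and 16.4, 23.1 and 32.1 CPM in cycle-low wells, with no overlap. It fell by 1.23 in share (SE 0.216, adjusted p = 0.000261) and stood at −0.74 per spike-in (adjusted p = 0.00864). Fgf10, another ligand of epithelial receptors, fell by 0.69 in share (47.7 ± 16.3 to 28.5 ± 6.74 CPM), was lower in 7 of 7 libraries and was at −0.20 per spike-in (adjusted p = 0.294). The Fgf10 call was lost with S phase genes added to the score (−0.36, adjusted p = 0.181). In libraries 1, 2 and 4 neither passed, at −0.94 for Fgf7 (adjusted p = 0.111) and −0.75 for Fgf10 (adjusted p = 0.072).

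In the BMP, TGF-beta and activin list 9 of 35 were lower (25.7%) and 1 higher (2.86%), Id2, against 16.3% and 16.7% of all genes. Bmp2, a ligand, was at 3.69, 9.87 and 16.8 CPM in dividing and 13.4, 24.9 and 32.8 CPM in cycle-low wells, lower in 7 of 7 libraries, and fell by 1.34 (SE 0.213, adjusted p = 9.89e-05) in share and stood at −0.85 per spike-in (adjusted p = 0.00436). Bmp4, the related ligand of condensates and upper dermis, was at 52.5 ± 21.4 against 50.9 ± 9.42 CPM (0.04, adjusted p = 0.883). Tgfbr2, a TGF-beta receptor, fell by 0.72 in share (137 ± 12.6 to 85.4 ± 30.6 CPM) and was at −0.23 per spike-in (adjusted p = 0.196). Ccl2, a chemokine for monocytes, fell by 2.00 (44.4 ± 26.7 to 10.7 ± 7.18 CPM) and stood at −1.51 per spike-in (adjusted p = 0.00139), lower in 6 of 7 libraries with library 7 the exception. On its list of chemokines and guidance cues 8 of 28 were lower (28.6%) and 3 higher (10.7%), against the same shares of all genes.

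Of 40 WNT genes 5 were higher (Wif1, Sp5, Dkk1, Lef1 and Ctnnb1) and 5 lower (Rspo1, Sfrp2, Lgr5, Fzd8 and Dkk3), with a median of 0.03. Each count is 12.5% of the list, below the 16.7% and 16.3% of all genes. Wif1, a secreted inhibitor that binds WNT proteins, was at 123, 234 and 303 CPM in dividing and 113, 144 and 183 CPM in cycle-low wells. It was higher in 6 of 7 libraries, with overlap through libraries 4 and 7, and rose by 0.66 (SE 0.104, adjusted p = 9.76e-05) in share and 1.13 per spike-in. Rspo1, an enhancer of WNT signalling, was at 37.8, 53.4 and 58.4 CPM against 66.1, 76.2 and 90.4 CPM, with no overlap, and fell by 0.57 (SE 0.0985, adjusted p = 0.000216) in share but was at −0.08 per spike-in (adjusted p = 0.554). Sfrp2, a secreted WNT modulator, fell by 0.70 in share (329.6 ± 82.3 to 199 ± 39.5 CPM) and was at −0.21 per spike-in. In libraries 1, 2 and 4 alone neither passed, at −0.56 for Rspo1 (adjusted p = 0.0659) and −0.50 for Sfrp2 (adjusted p = 0.0538).

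Of 9 hedgehog genes 3 were higher (Gli3, Gli1 and Gas1) and 1 lower (Cdon), against 16.7% and 16.3% of all genes. Gli3, a transcription factor of the pathway, was at 121, 160.0 and 211 CPM in dividing and 58.3, 101 and 169 CPM in cycle-low wells, higher in 7 of 7 libraries with overlap, and rose by 0.59 (SE 0.101, adjusted p = 0.000197). Gli1, a target and effector of the pathway, rose by 0.50 (57.5 ± 8.98 to 79.0 ± 11.7 CPM, adjusted p = 0.00207) and was higher in 7 of 7 libraries, but the call was lost with the top 10% of wells (0.32, adjusted p = 0.287) and in libraries 1, 2 and 4 (0.28, adjusted p = 0.418). Gas1, a co-receptor of hedgehog proteins, was at 0.21 (adjusted p = 0.0222). Its call was lost without library 2 (0.16, adjusted p = 0.069), without library 7 (0.17, adjusted p = 0.0632) and in libraries 3, 5, 6 and 7 (0.12, adjusted p = 0.295), and the value was −0.08 with S phase genes added to the score. Ptch1, the receptor, had too few UMIs to be tested, at 1.03 to 10.01 CPM in dividing and 0.828 to 6.62 CPM in cycle-low wells. Among 11 Notch genes Hey1, a target, was the sole rise (5.67 ± 2.25 to 12.3 ± 2.73 CPM, 1.03, adjusted p = 0.0129), and none fell. The Hey1 call was lost without library 5 (0.81, adjusted p = 0.0621), in libraries 3, 5, 6 and 7 (0.78, adjusted p = 0.161) and in libraries 1, 2 and 4 (1.54, adjusted p = 0.0506).

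Among retinoic acid genes, Cyp26b1 rose and Crabp2 fell in share. Cyp26b1, the enzyme that degrades retinoic acid (chr6:84571414-84593908), was at 68.7, 114 and 153 CPM in dividing and 42.6, 50.1 and 74.5 CPM in cycle-low wells. It was higher in 7 of 7 libraries, with overlap through the lowest dividing library, library 7, and rose by 1.02 (SE 0.120, adjusted p = 3.32e-06) in share and 1.505 per spike-in. Crabp2, a carrier that brings retinoic acid to its receptors, fell by 0.87 (55.4 ± 14.9 to 30.7 ± 7.39 CPM) in share and stood at −0.38 per spike-in (adjusted p = 0.0192). In libraries 1, 2 and 4 the Crabp2 share difference was −0.73 (adjusted p = 0.0686).

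**Figure D5:**
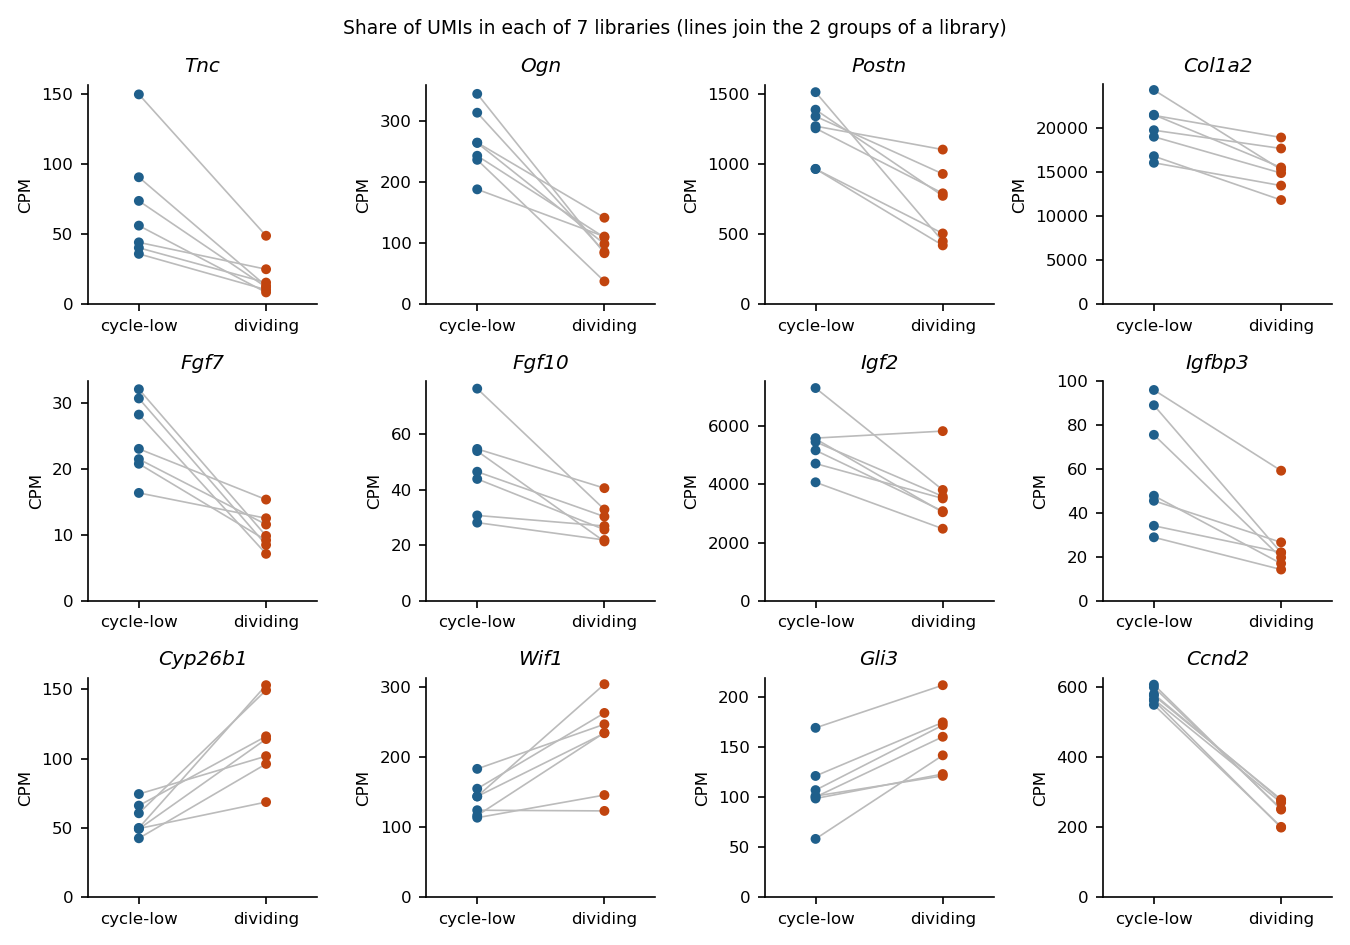
CPM of 12 genes in the cycle-low and the dividing wells of each of 7 libraries, with a line joining the groups of a library. Tnc, Ogn, Fgf7 and Ccnd2 drop in every library, Cyp26b1 and Gli3 climb in every library, and Igf2 and Wif1 each have 1 library that goes the other way.

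Of 23 upper dermal genes 3 were higher (13.04%) and 2 lower (8.696%), both below the 16.7% and 16.3% of all genes, with a median of 0.04. Of 21 genes of the lower dermis and fascia 11 were lower (52.4%) and 0 higher, with a median of −0.41. Adipogenic genes, on at the base of the skin, were lower in 5 of 13 with 0 higher. Per spike-in the lower dermal list gave 5 higher and 1 lower, and the upper dermal list 15 higher and 0 lower. On that scale 60.7% of all genes were higher and 1.9% lower. The difference between the lists was not tested.

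In the upper dermal list, Lef1, a transcription factor of WNT signalling, rose by 0.40 (70.8 ± 22.8 to 90.8 ± 22.1 CPM, adjusted p = 0.0122), a call lost without library 6 (0.35, adjusted p = 0.051), in libraries 3, 5, 6 and 7 (0.38, adjusted p = 0.058) and in libraries 1, 2 and 4 (0.41, adjusted p = 0.162). Crabp1, an abundant marker of the upper layer, was at 1502, 2248 and 2890.2 CPM in dividing and 1715, 2212 and 2500.1 CPM in cycle-low wells, which overlapped widely. Its difference was 0.04 in share (adjusted p = 0.694) and 0.53 per spike-in (adjusted p = 1.94e-05). Twist2, a dermal transcription factor, was at 1073 ± 166 against 951 ± 79.3 CPM and missed the threshold (0.17, adjusted p = 0.0597), but passed without library 7 (0.24, adjusted p = 0.00247) and with UMI-matched wells (0.31, adjusted p = 0.000325). Zfhx4, a zinc finger homeobox gene of the same list, fell by 0.67 in share (177 ± 30.8 to 112 ± 28.3 CPM), a call lost per spike-in.

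In the lower layers, Dlk1, a regulator of adipogenesis, was at 2344, 2599.8 and 5137 CPM in dividing and 2867, 4292 and 5515 CPM in cycle-low wells. It was lower in 6 of 7 libraries, with library 7 the exception, and fell by 0.54 (SE 0.0994, adjusted p = 0.000422) in share, with −0.05 per spike-in (adjusted p = 0.724). Limch1, an actomyosin regulator, fell by 0.98 in share (50.7 ± 14.8 to 25.4 ± 7.86 CPM) and stood at −0.49 per spike-in (adjusted p = 0.0423). Fbn1, a fibrillin also counted in the elastic fibre list, fell by 0.49 in share (412 ± 89.4 to 292 ± 70.4 CPM), a call lost in libraries 3, 5, 6 and 7 (−0.38, adjusted p = 0.103). Per spike-in Fbn1 was at −0.0012 (adjusted p = 0.995). Ppara, a nuclear receptor of fat metabolism on the adipogenic list, was at 1.29, 3.14 and 7.37 CPM in dividing and 9.84, 13.9 and 22.7 CPM in cycle-low wells, without overlap, and fell by 1.83 (SE 0.331, adjusted p = 0.000341).

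Mfap5, a marker of fascia, differed between settings. It was at 1.05, 37.2 and 88.2 CPM in dividing and 6.35, 38.1 and 65.4 CPM in cycle-low wells, with a difference of −0.13 (SE 0.450, adjusted p = 0.857). Without the 110 wells that held more than 2 times the median UMIs of their library, it was −2.07 (adjusted p = 0.00224), and with S phase genes added to the score −1.92 (adjusted p = 0.00417). Without the same wells the matrix lists gave 85 lower and 3 higher, and the layer, adipogenic and condensate lists 28 lower and 12 higher in place of 22 and 5. Over all genes 1614 were lower and 1564 higher in that setting.

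The largest falls outside the cycle lists included matrix genes and genes of other roles. Mxra8, an adhesion protein at the cell surface, was at 20.6, 27.7 and 46.1 CPM in dividing and 59.1, 70.4 and 92.7 CPM in cycle-low wells and fell by 1.32 (SE 0.134, adjusted p = 4.72e-07). Igdcc4, a receptor of the immunoglobulin family, was at 41.1, 75.3 and 85.2 CPM against 162, 175 and 209.9 CPM and fell by 1.299 (SE 0.107, adjusted p = 2.47e-08). As a mean of the library percentages, 88.3% of dividing wells lay below the cycle-low Igdcc4 median of their library. Neither gene overlapped, and both were lower per spike-in, Mxra8 at −0.83 and Igdcc4 at −0.82. Sema6c, a semaphorin, Mt2, a metallothionein, Nr4a2, an orphan nuclear receptor, and Gpr180 differed by −1.41, −1.33, −1.26 and −1.21 in share without overlap. Over all genes, 5.93% were higher and 2.55% lower without overlap between the libraries of the groups, and 9 of the 121 matrix genes were lower and 0 higher in this way.

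The wells between the groups, which entered no test, differed from gene to gene. Tnc was at 38.8 ± 26.4 CPM there, Ogn at 140.2 ± 45.0 CPM and Igdcc4 at 109 ± 23.4 CPM, each between the dividing and cycle-low means. Fgf7 at 11.7 ± 6.02 CPM, Postn at 762 ± 172 CPM and Mxra8 at 32.0 ± 12.01 CPM stood close to the dividing wells, although the wells between had a median score of 8.33 to 22.1 per library. Ccl2 at 41.4 ± 19.7 CPM and Rspo1 at 74.3 ± 21.0 CPM stood close to the cycle-low wells. The means of the genes named here thus differed in which group the wells between stood near, and this was not tested. Dividing wells had lower mean sums of keratinocyte, pericyte and immune markers and more UMIs per well than cycle-low wells, as given above. The wells between had 0.986 times the median UMIs of the cycle-low wells (exact permutation p = 0.844), and marker sums were not made for them. The part of markers and depth in the falls was not tested apart from the wells matched on UMIs.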

How the data were processed

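Members, gene lists and tests were chosen with earlier results of these data known. The deposited table holds estimated counts per gene and well: the values are those of the usual correction of UMI counts for tags shared by chance, and each of the 7071360 values above 0 matched that formula for 4096 tags within 0.0051. The authors' steps before that are not given in the sources used here beyond what follows. Wells were made by SORT-seq, per the labels' protocols. The submitters' processing notes name mm10, BWA 0.6.2-r126, Cufflinks 2.1.1, TopHat2 2.0.3 and Bowtie2 without their roles.

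The design had assumed whole counts, so each estimated count was rounded (13.5% of values above 0 changed) and then summed per library and group. Genes passing filterByExpr were tested in R 4.3.3 with edgeR 4.0.16 (TMM scaling, quasi-likelihood F test, library and group as terms, Benjamini-Hochberg adjusted p under 0.05). Each library gave both groups, so pairing follows from the design. Depth was compared by an exact two-sided sign-flip permutation test over 7 libraries. The code was tested on simulated data. There 60.2% of the 1.5-fold and 92.9% of the 2-fold changes were recovered, and 8.5% of calls were false. Spike-in scaling was added after the data were seen. Genes named with values are a set of 30 known dermal and cycle genes, some of the 10 largest rises and 10 largest falls (adjusted p under 0.05, average log2 CPM of at least 5, the same direction in 7 libraries, outside the cycle and other cell type lists), the 3 members with the lowest p in each list, and cycle genes as description. No doublet caller was run. Columns without the Fb prefix, among them wells named for dermal condensates, were not used here. Promoters came from RefSeq (GRCm38.p6). Alternatives included DESeq2 1.42.0, other limits of the score, matched and thinned wells, and leaving out each library.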

Additional observations from a re-analysis of the deposited data

Results flagged for a closer look

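In 22 of 174 sets of 7 library values, the highest or lowest library stood farther from the rest than Dixon's 95% limit allows; chance gives about 5% of sets. Library 4 accounts for many of these. It was lowest for Col1a1 in cycle-low wells (4787 CPM, the others 9714 to 12131) and highest for Col3a1 in dividing (18884 CPM) and cycle-low wells (21918 CPM). It was also highest for Serpinh1 in both groups (2654 and 3134 CPM), for Tnc (49.0 CPM) and Igfbp3 (59.3 CPM) in dividing wells, and for Cdkn2c (26.5 CPM), Cdkn2d (18.2 CPM), Ccng2 (38.9 CPM) and Myc (166 CPM) in cycle-low wells.

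Library 7 stood above the other dividing sums for Dlk1 (5137 CPM), Igf2 (5820 CPM) and Sema6c (27.7 CPM). The labels of library 7 name one plate in its title and another in its description, and without it Dlk1 and Igf2 still passed as lower in share. Library 3 was highest in dividing wells for Bmp4 (97.7 CPM) and Cdkn1a (90.3 CPM). Library 1 was lowest for Gpr180 in dividing wells (27.2 CPM) and highest for Ccne2 in cycle-low wells (8.20 CPM), and its median spike-in count was 706 UMIs in dividing and 707 UMIs in cycle-low wells, against at most 454 in the other libraries. Library 5 was highest for Lamb1 (382 CPM) and library 6 for Ccl2 (95.4 CPM) in cycle-low wells. Both groups of a library moved together for Col3a1, Serpinh1 and the spike-in count.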

How the results depend on the processing

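Of 80 named genes called, 54 kept direction and call in every one of 25 other settings that tested them. Reversals among these were Cdkn1a with S phase genes added to the score (0.31) or the top 30% of wells (0.057) and Gas1 with S phase genes added (−0.080). Spike-in scaling, added after the data were seen, moves the median of all genes from −0.010 to 0.48, so a smaller fall in share changes sign by construction. Values above 0 on that scale were Col1a1 (0.20), Col1a2 (0.12), Col3a1 (0.21), Dcn (0.28), Lum (0.46, not called in share), Lox (0.057), Fn1 (0.015), Sparc (0.16), Btg1 (0.17), Serpinh1 (0.11), Col6a2 (0.22), Col6a1 (0.23), Fbn2 (0.080), Mfap2 (0.14), Fstl1 (0.19), Spry1 (0.080), Cebpb (0.023) and Srebf1 (0.042). Of these Col3a1, Dcn, Col6a1, Col6a2 and Fstl1 passed as higher, as did Lum (0.46), which was not called in share. The scaling ended 24 other calls and kept 39. In libraries 1, 2 and 4, 18 of the 80 calls were lost, and in libraries 3, 5, 6 and 7, 8 were.

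Counts are given as genes higher and lower. Spike-in scaling gave 5789 and 181 over all genes, 27 and 9 for matrix, 92 and 8 for signalling, 30 and 2 for layer, and 18 and 3 for brake and D-type cyclin genes. Wells thinned to 3000 UMIs gave 307 and 316 over all genes, 46 lower for matrix, 3 and 20 for signalling, 2 and 11 for layer, and 0 and 7 for brake genes; fewer genes passed the filter there. Libraries 1, 2 and 4 gave 731 and 562 over all genes, 8 and 28 for signalling, 3 and 13 for layer, and 5 and 8 for brake genes. Libraries 3, 5, 6 and 7 gave 992 lower over all genes, 1 higher for matrix, 8 higher for signalling and 11 lower for layer genes. Higher matrix genes numbered 4 with S phase genes added, 3 without wells above 2 times the median, 2 with matched wells, with at least 8000 UMIs per well, without a filter and with totals without cycle genes, and 1 with the top 30% or against all wells outside the top 20%. Higher signalling genes numbered 30 with S phase genes added and 25 with matched wells. Higher layer genes numbered 12 with matched wells and without wells above 2 times the median, 11 with S phase genes added and without a filter, 9 with the top 10% and with at least 8000 UMIs, and 8 with totals without cycle genes, and 14 layer genes were lower against the bottom 30%. Higher brake genes numbered 5 with DESeq2, with the top 10% and against all wells outside the top 20%. The cause of these shifts was not tested.

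Without the library as replicate block, 1276 genes were higher and 1144 lower, with 53 matrix genes lower, 9 signalling genes higher and 8 brake genes lower, and 11 named calls were lost. Leaving out each library in turn gave 0 to 1 matrix genes higher and 64 to 84 lower, and 4 to 9 layer genes higher; the highest layer count was without library 7. DESeq2 gave 1116 higher and 1095 lower genes. Depth limits genes such as Ptch1 and Ccne2, which could not be tested.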

Other observations

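Genes of the secretory pathway, a list chosen after their values were seen, were mostly lower in share in dividing wells: 44 of 69 were lower and 1, Sec24c, higher, with a median of −0.29, against 16.3% lower and 16.7% higher of all genes. Since the list was chosen on these values, nothing is read from the count. Per spike-in 31 were higher and 2 lower, Fkbp11 and Golgb1, against 60.7% and 1.9% of all genes. Fkbp11, a prolyl isomerase of the endoplasmic reticulum, was at 55.5 ± 10.7 CPM in dividing and 115 ± 15.6 CPM in cycle-low wells (mean ± SD, 7 libraries), a difference of −1.05 in share (edgeR adjusted p = 5.46e-07) and −0.56 per spike-in. Golgb1, a tether of Golgi vesicles, was at 66.0 ± 19.2 against 119 ± 18.9 CPM, a difference of −0.84 in share and −0.36 per spike-in.

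Immediate early genes, which respond to growth signals and to handling of cells, were lower in share in 15 of 19 tested, with 0 higher and a median of −0.33, against 16.3% and 16.7% of all genes. Per spike-in 5 were higher and 3 lower, against 60.7% and 1.9% of all genes. Klf2, a transcription factor of this list, was at 42.3 ± 17.8 against 86.9 ± 19.6 CPM, a difference of −1.062 in share and −0.57 per spike-in (edgeR adjusted p = 0.00967). Of 17 genes of glycolysis and the hypoxia response, 5 were lower (29.4%) and 1, Pgam1, higher (5.88%), against 16.3% and 16.7% of all genes.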
